A study of Mus musculus with 12 samples.

Results

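The subject is 1500 stretches of chromatin that carried acetylated lysine 27 of histone H3 (H3K27ac) more than 20000 bp from any protein-coding gene. They are 17.2% of the 8704 regions obtained when the H3K27ac peaks of 4 libraries were merged wherever they overlapped by 1 bp or touched. The distance was taken to the nearest protein-coding gene body. A region needed a peak in at least 1 of the 4 lists, and no further level of acetylation entered the choice. A longer list therefore brings in more regions of its own, which bears on every share of presence below. The libraries came from fibro-adipogenic progenitors (FAPs), mesenchymal cells that lie between the fibres of skeletal muscle. All were sorted from muscle of C57Bl6 mdx mice, which carry a mutated dystrophin gene and serve as a model of Duchenne muscular dystrophy, so that every group was dystrophic. The groups were young TSA, young vehicle, old TSA and old vehicle mice. Young mice were 1.5 months and old mice 12 months of age. Trichostatin A (TSA), which blocks histone deacetylases, was injected daily into the peritoneum at 0.6 mg/kg for 15 days, and vehicle mice received saline on the same schedule. Each group has 1 H3K27ac library, and the labels do not say whether animals were pooled for it. With 1 library per group there is no replicate check of any difference and no test between groups, and the intervals given below cover counting error only.

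H3K27ac marks active promoters and active enhancers, the switches that raise the transcription of genes that can lie far away along the chromosome. Histone deacetylases remove this mark, and an inhibitor slows its removal. FAPs support regeneration after injury, and in dystrophic muscle they give rise to matrix-producing fibroblasts and to adipocytes. A region far from coding genes may be an enhancer or the promoter of a non-coding RNA. The nearest gene is used below as a position on the map only, since an enhancer need not act on the gene next to it.

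A part of these regions sat on annotated starts of long non-coding RNAs (lncRNAs), and for these the sequence around the start was at hand from RefSeq (GRCm38.p6). The first 4 sequences below run 5′ to 3′ from 250 bases before to 50 bases after a start, and all lie inside an H3K27ac region. They are shown because the results turn on these regions. They are the start with the second most tags of the other mark studied (H3K9/14ac), the start with most H3K27ac tags, the start of a microRNA host and the start farthest from any coding gene. Capitals mark the GC box GGGCGG and the AP-1 motif TGANTCA on either strand; CCAAT and TATAAA were searched on both strands as well.
D730003I15Rik, chr1:191224204-191224503, plus strand: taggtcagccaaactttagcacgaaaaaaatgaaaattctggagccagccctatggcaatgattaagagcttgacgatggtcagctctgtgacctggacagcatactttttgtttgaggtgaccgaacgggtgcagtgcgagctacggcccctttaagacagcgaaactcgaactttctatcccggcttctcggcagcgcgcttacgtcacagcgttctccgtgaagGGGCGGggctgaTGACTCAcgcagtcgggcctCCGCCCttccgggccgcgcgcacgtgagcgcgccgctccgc
Morrbid, chr2:128429302-128429601, minus strand: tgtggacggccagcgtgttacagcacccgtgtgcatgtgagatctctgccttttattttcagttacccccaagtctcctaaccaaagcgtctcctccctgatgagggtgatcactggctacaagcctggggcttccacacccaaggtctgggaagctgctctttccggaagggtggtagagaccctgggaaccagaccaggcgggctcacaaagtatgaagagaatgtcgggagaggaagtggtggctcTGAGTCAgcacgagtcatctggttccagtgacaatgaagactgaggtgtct
A330023F24Rik, chr1:195017149-195017448, plus strand: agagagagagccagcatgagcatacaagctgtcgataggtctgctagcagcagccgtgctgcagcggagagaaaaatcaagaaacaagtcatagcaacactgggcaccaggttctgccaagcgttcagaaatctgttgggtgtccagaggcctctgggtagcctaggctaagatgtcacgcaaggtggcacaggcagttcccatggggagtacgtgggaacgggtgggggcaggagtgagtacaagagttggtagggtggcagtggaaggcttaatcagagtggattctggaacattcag
Gm13470, chr2:46442856-46443155, minus strand: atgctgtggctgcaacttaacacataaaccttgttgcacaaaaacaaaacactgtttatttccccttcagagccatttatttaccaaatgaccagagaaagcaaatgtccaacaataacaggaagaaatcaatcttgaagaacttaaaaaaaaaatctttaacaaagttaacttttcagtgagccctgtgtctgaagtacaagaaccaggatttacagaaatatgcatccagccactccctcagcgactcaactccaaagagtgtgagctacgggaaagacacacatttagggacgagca
The D730003I15Rik window held 28 CpG dinucleotides, 2 GC boxes and 1 AP-1 motif, and the Morrbid window held 8 CpG dinucleotides and 1 AP-1 motif. The other two windows held 7 and 3 CpG dinucleotides and none of these motifs.

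The microRNAs next to these regions are shown for their seeds (bases 2 to 8, in capitals), because both miR-29 members share 1 seed. A330023F24Rik is the host transcript of miR-29b-2 and miR-29c, a family known to repress collagen and other matrix mRNAs.
mmu-miR-29b-3p: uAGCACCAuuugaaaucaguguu
mmu-miR-29c-3p: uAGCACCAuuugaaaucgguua
mmu-miR-30a-5p: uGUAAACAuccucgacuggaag
The hairpin of miR-30a lay inside the member chr1:23272142-23272407, which had 36 tags in young vehicle and no peak in the other lists. Its neighbour chr1:23270902-23271959 had 66 tags in young TSA, 143 tags in young vehicle, 69 tags in old TSA and no peak in old vehicle.

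The comparison used chromosomes 1 and 2 and chromosome 3 up to position 122275556, the stretch that all 4 H3K27ac lists cover. The lists held 5945 peaks in young TSA, 7891 in young vehicle, 7571 in old TSA and 5727 in old vehicle within it, with 1376021, 1659160, 1497491 and 952786 tags in the same order. A tag is a sequenced fragment end counted in a peak, and tags outside listed peaks are not given, so a region without a peak in a list has an unknown level there. As a check of the labelled cell type, 3 of 4 FAP genes (Prrx1, Cd34 and Fap) had a peak in their body in all 4 lists, and Twist2 had one in every list but old vehicle. Ttn, Neb and Chrna1 of muscle fibres, Fcgr2b and Fcgr3 of macrophages and Ptprc, Cd28 and Ctla4 of lymphocytes had none in any list. The macrophage gene Spi1 had 217 tags in old TSA and 36 in old vehicle and no peak in the young lists, and the muscle gene Myog had 43 tags in young TSA and 96 in young vehicle and no peak in the old lists. The endothelial genes Eng, Egfl7 and Sox18 had peaks in all 4 lists, with summed tags of 7302 in young TSA, 7470 in young vehicle, 5981 in old TSA and 3103 in old vehicle. The lymphocyte genes Cd247 and Cd2 and the muscle fibre gene Casq1 also had peaks in all 4 lists. The part of such cells in the results below was not tested.

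The distant regions were sparse. Space more than 20000 bp from a coding gene made up 46.2% of the stretch, and it held 6.54 regions per Mb, against 26.98 regions per Mb in the rest. The median width was 643.5 bp for distant regions and 832.5 bp for regions within 20000 bp of a gene, and the median of tags summed over the 4 lists was 155 and 285.5. Regions near genes but outside their bodies were as narrow as the distant ones, with a median of 641 bp, and had a median of 205 summed tags. Tags per kb of covered length were closer, between 170 and 185 in distant regions and between 200.3 and 235 in the others across the 4 lists. The median distance to a coding gene was 66.5 kb. Just inside the distance threshold lay chr2:167585945-167587610, 20029 bp from Ube2v1, and chr2:131461397-131461843, 20102 bp from Gm30679. The first had 135 tags in young TSA, 165 in young vehicle, 249 in old TSA and no peak in old vehicle. Just outside lay chr2:84915517-84916610, 19935 bp from Slc43a3, and chr2:131372793-131374294, 19901 bp from Rnf24, with 273 and 605 summed tags.

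Presence differed widely between the libraries. A peak was present at 717 distant regions in young TSA (47.8%, exact 95% interval 45.2 to 50.4), 1178 in young vehicle (78.5%, 76.4 to 80.6), 1044 in old TSA (69.6%, 67.2 to 71.9) and 644 in old vehicle (42.9%, 40.4 to 45.5). Regions within 20000 bp of a gene had a peak in 61.6%, 84.1%, 75.4% and 53.1% of cases in the same order of libraries. All 4 lists shared 445 distant regions (29.7%, 27.4 to 32.0), against 45.3% (44.1 to 46.4) of the regions near genes. The commonest other patterns were young vehicle only with 282 regions, old TSA only with 201, the 3 lists other than old vehicle with 133, and young vehicle with old TSA with 121. Old vehicle only and young TSA only had 33 and 30 regions. The regions of 1 list were narrow and weak, with a median width of 325.5 bp and 48 tags, against 1328 bp and 670 summed tags for those in all 4 lists.

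**Figure D1:**
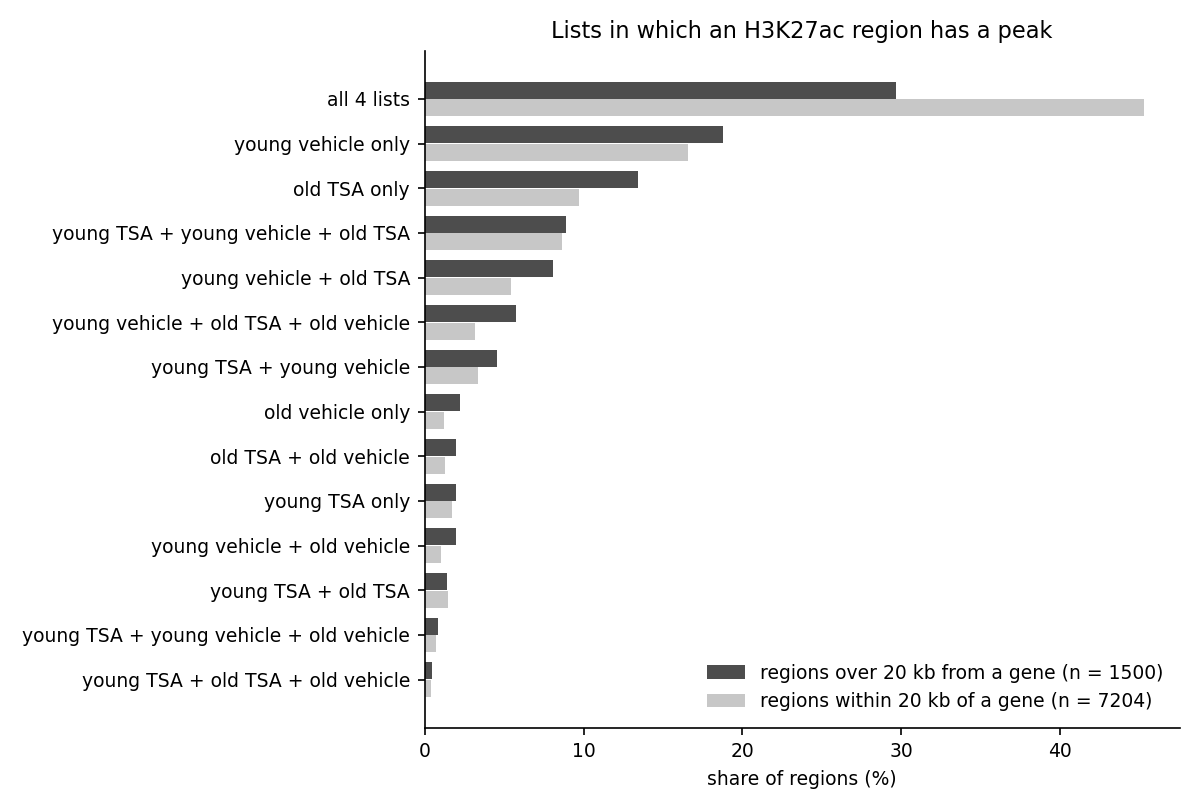
Share of regions (%) for each combination of lists with a peak, for the 1500 regions over 20 kb from a coding gene (dark bars) and the 7204 regions within 20 kb (light bars). Distant regions reached 29.7% in the bar for all 4 lists, against 45.3% for regions near genes, and were above the regions near genes in the bars for young vehicle only and old TSA only.

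The farther classes were poorer still in young TSA. Between 20 and 50 kb from a gene, 50.9% of 584 regions had a young TSA peak and 79.8% a young vehicle peak. Over 500 kb from a gene, 26.8% of 41 regions (exact 95% interval 14.2 to 42.9) had a young TSA peak and 75.6% (59.7 to 87.6) a young vehicle peak. The old libraries gave 71.9% with a peak in old TSA and 44.9% in old vehicle in the nearest class, and 61.0% and 36.6% in the farthest. Between 50 and 100 kb they gave 72.5% and 43.1%, and between 100 and 500 kb 64.9% and 40.9%. The median summed tags were lower with distance too, at 189.5 in the nearest class and 66 in the farthest.

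The strongest distant regions differed little between the libraries. The region with most tags, chr2:128427059-128432088, covers the start of Morrbid, a lncRNA known for its control of the death gene Bcl2l11 in mouse myeloid cells. It had 1413 tags in young TSA, 1526 in young vehicle, 1302 in old TSA and 1044 in old vehicle. Differences between libraries are given as relative tags, the log2 ratio of tags less the median log2 ratio over all 3706 regions with a peak in every list. Those medians were -0.12 for young TSA against young vehicle, 0.50 for old TSA against old vehicle, -0.61 for old against young vehicle and 0.03 for old TSA against young TSA. On that scale the Morrbid region was at 0.01 ± 0.05 between the young libraries and -0.19 ± 0.06 between the old ones (counting error).

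The next regions were alike. Chr1:86469709-86473347 at the start of Gm41907 had 1203 tags in young TSA, 1245 in young vehicle, 1289 in old TSA and 909 in old vehicle. Chr1:136682763-136687034 at the start of Gm19705 had 1023, 1090, 1192 and 870 tags in the same order. Chr3:96499399-96503315, 21.8 kb from Hjv, which encodes the iron regulator hemojuvelin, had 1165, 1280, 1220 and 1007 tags, and chr3:51193963-51198426, 26.0 kb from the circadian gene Noct, had 998, 1171, 1029 and 882. Chr2:30715357-30719215 in Gm14488 had 945 tags in young TSA, 1010 in young vehicle, 1333 in old TSA and 904 in old vehicle. Its relative tags were 0.46 ± 0.06 for old TSA against young TSA and 0.45 ± 0.07 for old against young vehicle. The farthest region of all, chr2:46441480-46444263, lay 1324038 bp from Zeb2 and covers the start of Gm13470. It had 547 tags in young TSA, 640 in young vehicle, 626 in old TSA and 458 in old vehicle, whereas the next in distance, chr2:8421152-8421392 near Celf2 and chr1:47853806-47854064 near Slc39a10, had 46 tags in young TSA only and 53 tags in young vehicle only.

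**Figure D2:**
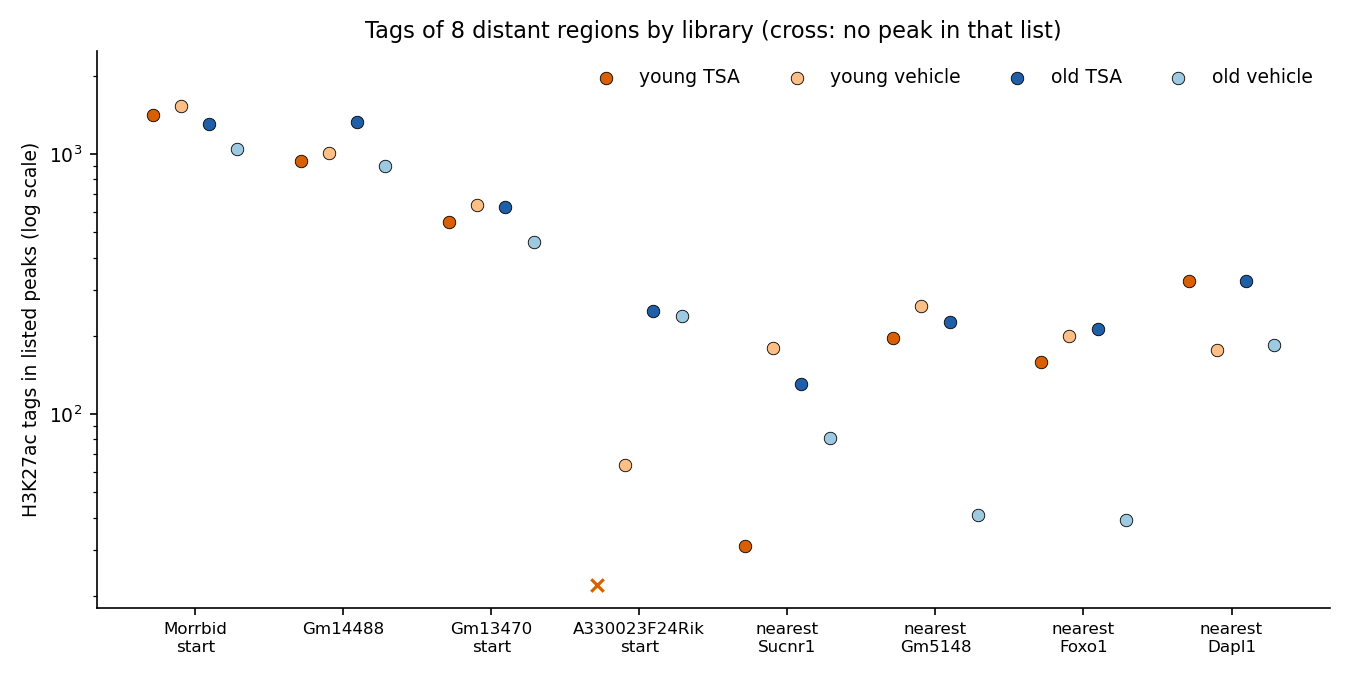
H3K27ac tags in listed peaks (log scale) of 8 distant regions in young TSA, young vehicle, old TSA and old vehicle; a cross means that the list has no peak there. The Morrbid, Gm14488 and Gm13470 regions lie close together across libraries, and the regions nearest Gm5148 and Foxo1 are low in old vehicle, at 41 and 39 tags.

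LncRNA starts stood out among the distant regions. A start window was covered by 65 of them (4.33%), and 39 of these (60%, exact 95% interval 47.1 to 72.0) had a peak in all 4 lists. Of the 353 regions inside a lncRNA gene away from its start, 33.7% (28.8 to 38.9) did, and of the 1082 regions outside lncRNA genes 26.5% (23.9 to 29.3). The median summed tags were 449, 194 and 138 in the same order, so the starts were also the stronger regions. They were the wider ones too, with median widths of 1021, 682 and 604 bp, and a wide region overlaps a start window more readily. The part of width and tags in these shares was not tested. Of the 1011 lncRNA start windows far from coding genes, 77 (7.62%) carried an H3K27ac region. Of these 77 windows 16.9% held the AP-1 motif and 11.7% a GC box, against 11.5% and 7.39% of the 934 distant windows without a region and 7.81% and 35.7% of all 32851 start windows in the table. CCAAT was in 32.5%, 36.6% and 37.4% of the 3 sets, and TATAAA in 13.0%, 18.5% and 13.6%.

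Single lncRNA starts varied in their own ways. The start of Bmncr, a lncRNA described in mouse bone marrow mesenchymal stem cells, lay in chr1:133976866-133979743, with 396 tags in young TSA, 402 in young vehicle, 645 in old TSA and 482 in old vehicle. Relative to all regions it was higher in the old libraries, by 0.67 for old TSA against young TSA and 0.88 for old against young vehicle. The start of Gm4258, in chr1:137898100-137900293, had 549 tags in young TSA, 601 in young vehicle, 330 in old TSA and 214 in old vehicle, and was lower in the old libraries on the same scale (-0.77 and -0.88). The start of the miR-29 host A330023F24Rik, in chr1:195017062-195018260, had no peak in young TSA, 64 tags in young vehicle, 249 in old TSA and 239 in old vehicle. Its relative tags were 2.51 ± 0.20 for old against young vehicle and -0.45 ± 0.13 for old TSA against old vehicle. The other mark gave the same order of ages there: H3K9/14ac peaks had 101 tags in old TSA and 77 in old vehicle, and none was listed in either young library. It did not keep the H3K27ac order of ages at the Gm4258 and Bmncr starts. At Gm4258 it had 326 tags in young TSA, 268 in young vehicle, 333 in old TSA and 97 in old vehicle. At Bmncr it had 58 tags in young TSA and 143 in old vehicle, and no peak in young vehicle or old TSA.

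H3K9/14ac, the acetylation of lysines 9 and 14 of the same histone, is most abundant at promoters. It could be compared on chromosome 1 and chromosome 2 up to position 167064301, which hold 1027 of the distant regions. No H3K9/14ac peak of any library touched 873 of them (85.0%), and 46 (4.48%) had one in all 4 lists. Among distant regions with an H3K27ac peak of the same library, an H3K9/14ac peak was present at 20.2% in young TSA, 8.27% in young vehicle, 9.71% in old TSA and 17.6% in old vehicle. For regions near genes the shares were 60.5%, 40.7%, 47.7% and 59.6%. The H3K9/14ac lists are the longer ones in young TSA and old vehicle (3336 and 3235 peaks, against 2711 in young vehicle and 2474 in old TSA), and the part of list length in this order was not tested. LncRNA starts again stood apart from other distant regions: 24 of 48 (50%, exact 95% interval 35.2 to 64.8) had an H3K9/14ac peak in some list, against 130 of 979 (13.3%, 11.2 to 15.6). Distant regions with H3K9/14ac peaks in all 4 lists had a median of 1083 summed H3K27ac tags, against 117 for those with none. The part of this strength in the contrast was not tested. The Morrbid start had 547 H3K9/14ac tags in young TSA, 493 in young vehicle, 420 in old TSA and 602 in old vehicle. The D730003I15Rik start in chr1:191223656-191225790, 40.3 kb from the stress response factor gene Atf3, had 512, 302, 293 and 456 in the same order, beside 783, 732, 741 and 593 H3K27ac tags. The Gm14488 region chr2:30715357-30719215, away from the lncRNA start, had 348 in young TSA, 227 in young vehicle, 473 in old TSA and 553 in old vehicle.

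TSA against vehicle in young mice: distant regions were missing from the TSA list more often than from the longer vehicle list. Of 1236 regions with a peak in either library, 58 had it only in young TSA (4.69%, exact 95% interval 3.58 to 6.02) and 519 only in young vehicle (42.0%, 39.2 to 44.8). Over all regions the shares were 4.25% and 31.8%. With all lists reduced to the same number of peaks, by tags, they were 11.6% and 24.1% of distant regions. Here and in the comparisons below, shares with lists of equal length were not computed for regions near genes or for all regions. Among the 445 regions in all 4 lists, the median of relative tags was -0.11, against 0.01 for the 3261 regions near genes, and 154 (34.6%, 30.2 to 39.2) were higher in young TSA, where 50% of all regions were. One distant region was past 1 on the log2 scale and 23 were past -1, which is 0.225% and 5.17%, against 0.54% and 2.81% of all regions.

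The lowest relative tags in young TSA lay near Sucnr1, Lyplal1 and Wdr75. Chr3:60124174-60125501, 36.6 kb from Sucnr1, the succinate receptor gene, had 31 tags in young TSA, 180 in young vehicle, 131 in old TSA and 81 in old vehicle (relative tags -2.42 ± 0.28 between the young libraries). Chr1:186014296-186016001, 71.7 kb from Lyplal1, had 66, 253, 231 and 205 tags in the same order (-1.82 ± 0.20), and chr1:45673551-45674451, 120.7 kb from Wdr75, had 49, 163, 119 and 58 (-1.61 ± 0.24). In all 3 young TSA was the lowest of the 4 libraries. The listed peaks were narrow there, covering 173, 457 and 302 bp in young TSA, against 1324, 1641 and 901 bp in young vehicle. Tags are counted only inside listed peaks, so low tags and narrow peaks are not separate observations. The part of peak width in these differences was not tested. The region highest in young TSA, chr2:59525637-59528147, 20.6 kb from Dapl1, had 326 tags in young TSA, 176 in young vehicle, 325 in old TSA and 184 in old vehicle, so that TSA was the higher library at both ages. Chr2:163798011-163799091, 21.7 kb from Ccn5, which encodes a secreted matrix-associated protein, had 115, 63, 149 and 74 tags and the same order.

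TSA against vehicle in old mice: here the TSA list was the longer one and the one with more distant regions. Of 1120 regions with a peak in either library, 476 had it only in old TSA (42.5%, exact 95% interval 39.6 to 45.5) and 76 only in old vehicle (6.79%, 5.38 to 8.42), beside 33.9% and 4.32% of all regions. Regions outside gene bodies but within 20000 bp were close to the first of these shares, at 40.7% (37.6 to 43.8). Their share with a peak only in old vehicle was lower, at 3.58% (2.50 to 4.94). With lists of equal length the shares of distant regions were 25.2% and 16.3%. Relative tags of the regions in all 4 lists had a median of -0.09, against 0.01 near genes, and 180 of 445 (40.4%, 35.9 to 45.2) were higher in old TSA, where 50% of all regions were. Past 1 were 18 regions (4.04%) and past -1 were 9 (2.02%), against 3.62% and 0.89% of all regions. The most raised was chr3:37977381-37979348, 253.0 kb from Gm5148, with 226 tags in old TSA and 41 in old vehicle, beside 196 in young TSA and 260 in young vehicle (1.96 ± 0.24 between the old libraries). Chr3:52640997-52642542, 290.9 kb from Foxo1, a transcription factor gene of insulin signalling and muscle wasting, had 213 tags in old TSA and 39 in old vehicle, beside 159 in young TSA and 200 in young vehicle (1.94 ± 0.25). In both, old vehicle alone was low. The most lowered was chr3:51155811-51156622, 67.8 kb from Noct, with 37 tags in old TSA and 91 in old vehicle, beside 89 in young TSA and 117 in young vehicle (-1.80 ± 0.28). Chr3:21937152-21938793, 137.5 kb from Tbl1xr1, had 33 tags in old TSA and 70 in old vehicle, beside 106 in young TSA and 199 in young vehicle (-1.59 ± 0.30).

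Both TSA comparisons can be read side by side in single regions. Of the 519 regions held only by vehicle in the young pair, 121 (23.3%) were held only by TSA in the old pair, which is 25.4% of those 476. Over all regions the shares were close to these, at 21.4% and 22.4%. TSA alone held 21 regions in both pairs and vehicle alone 30. No distant region was held only by TSA in the young pair and only by vehicle in the old one, and 5 of the 7204 regions near genes were. The strongest region with young vehicle and old TSA peaks only, chr1:45756973-45758596, 36.6 kb from Wdr75, had 226 tags in young vehicle and 119 in old TSA.

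Old against young in vehicle mice: 70 of 1248 regions had a peak only in old vehicle (5.61%, exact 95% interval 4.40 to 7.03) and 604 only in young vehicle (48.4%, 45.6 to 51.2), beside 3.79% and 40.6% of all regions. With lists of equal length the shares of distant regions were 14.8% and 30.8%. The regions in all 4 lists had median relative tags of 0.15, against -0.01 near genes, and 265 of 445 (59.6%, 54.8 to 64.1) were higher in old vehicle, where 50% of all regions were. Regions outside gene bodies but within 20000 bp were close to this, with a median of 0.12 and 61.7% higher in old vehicle. Past 1 were 9 regions (2.02%) and past -1 were 26 (5.84%), against 1.67% and 5.02% of all regions. Among the highest was chr3:41194068-41195486, 111.0 kb from Pgrmc2, which encodes a haem-binding membrane protein, with 258 tags in old vehicle and 147 in young vehicle, beside 319 in old TSA and 141 in young TSA (1.43 ± 0.15). Both old libraries were above both young ones there. Among the lowest was chr2:84519109-84520430, 42.3 kb from Tfpi, the gene of an inhibitor of blood clotting, with 41 tags in old vehicle and 212 in young vehicle, beside 89 in old TSA and 117 in young TSA (-1.76 ± 0.25).

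Old against young in TSA mice: 438 of 1155 regions had a peak only in old TSA (37.9%, exact 95% interval 35.1 to 40.8) and 111 only in young TSA (9.61%, 7.97 to 11.5), beside 26.5% and 7.57% of all regions. With lists of equal length the shares of distant regions were 22.4% and 17.9%. Median relative tags were 0.16 against -0.02 near genes, and 293 of 445 (65.8%, 61.2 to 70.2) were higher in old TSA, where 50% of all regions were. Regions outside gene bodies but within 20000 bp had a median of 0.13, and 61.9% of them were higher in old TSA. Past 1 were 21 regions (4.72%) and past -1 were 13 (2.92%), against 3.37% and 1.48% of all regions. Chr1:90494843-90496746, 106.2 kb from Cops8, a subunit gene of the COP9 signalosome, had 234 tags in old TSA and 75 in young TSA, beside 220 in old vehicle and 154 in young vehicle (1.61 ± 0.19). The lowest was chr1:4543321-4545064, 45.9 kb from Sox17, a transcription factor gene of endoderm and endothelium, with 67 tags in old TSA and 227 in young TSA, beside 93 in old vehicle and 236 in young vehicle (-1.80 ± 0.20). Both old libraries were the low ones there, as the endothelial genes named above were in old vehicle, and the part of endothelial cells was not tested. The 4 comparisons share libraries in pairs, so that they are not separate observations.

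The direction of a library's relative tags depends on the scaling, but the gap between distant regions and regions near genes does not, since every region is shifted alike. That gap in medians was -0.12 for young TSA against young vehicle, -0.10 for old TSA against old vehicle, 0.16 for old against young vehicle and 0.18 for old TSA against young TSA. Regions near genes lie mostly inside gene bodies, and those outside them shared most of the age differences, as given above. The age gaps were also absent from the weakest regions: in the lowest of 4 tag classes, which holds 173 of the 445, the medians of distant regions and regions near genes were -0.03 and 0.01 for old against young vehicle and 0.11 and 0.14 for old TSA against young TSA. Scaled by total tags, 55.3% of distant regions were higher in young TSA than in young vehicle. With no scaling, 87.0% were higher in old TSA than in old vehicle and 10.3% higher in old than in young vehicle.

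**Figure D3:**
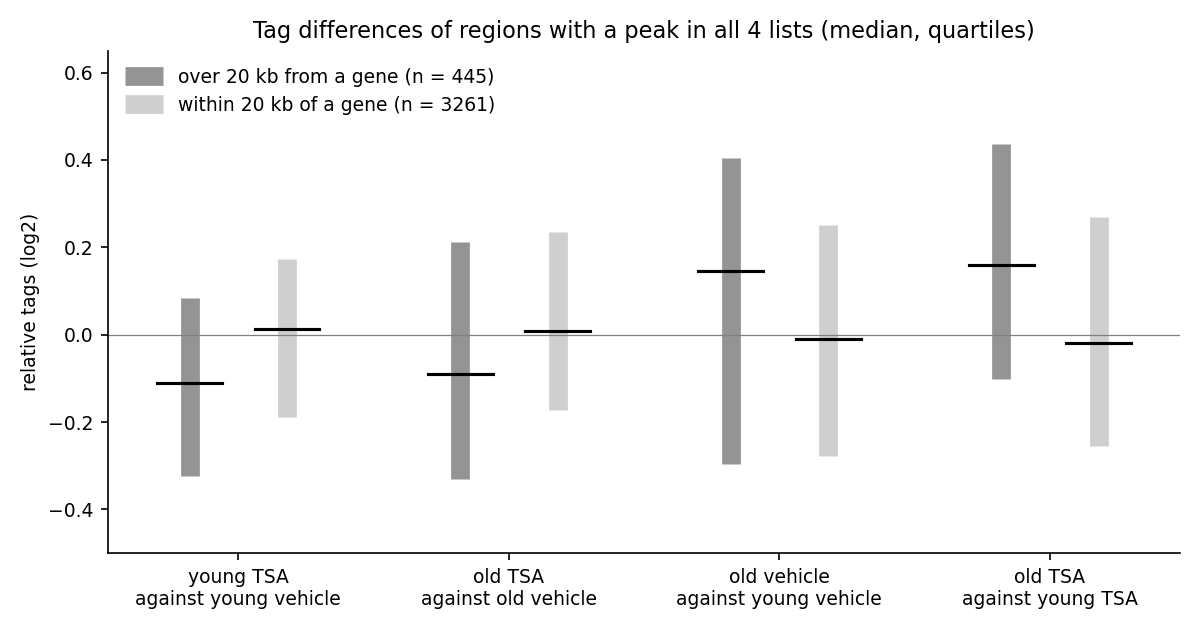
Relative tags (log2) of regions with a peak in all 4 lists, for each comparison; bars span the quartiles and black lines are medians, for 445 regions over 20 kb from a coding gene (dark) and 3261 within 20 kb (light). The dark medians lie at -0.11 and -0.09 in the TSA comparisons and at 0.15 and 0.16 in the age comparisons, with quartiles that overlap those of the light bars.

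Absence from the shorter list went with weak signal, both far from genes and near them. This view, by 4 equal classes of tags in the longer list, was chosen after seeing the data. In the lowest class of young vehicle regions, 80.7% of distant regions (exact 95% interval 76.3 to 84.6) and 77.7% of regions near genes (75.5 to 79.9) had no young TSA peak. In the highest class 0 of 129 distant regions lacked one (exact 95% interval 0 to 2.82%). In the lowest class of old TSA regions, 77.2% of distant regions (72.5 to 81.4) and 83.1% of those near genes (80.9 to 85.1) had no old vehicle peak. The widest gap in a lowest class was that of old TSA regions without a young TSA peak, at 76.4% (71.7 to 80.6) of distant regions and 69.1% (66.5 to 71.6) of regions near genes, and those intervals do not overlap.

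**Figure D4:**
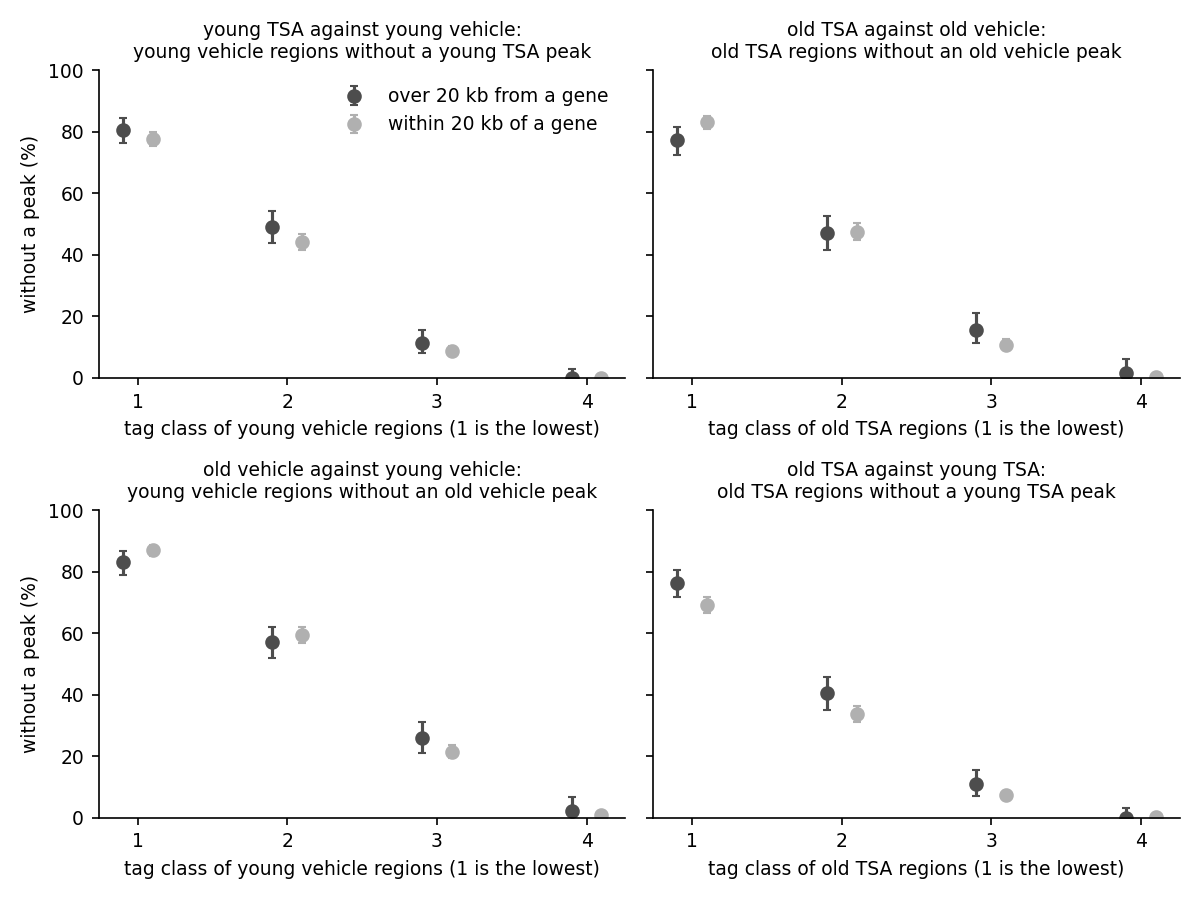
Share of regions (%) of the longer list that have no peak in the shorter one, by class of tags in the longer list (1 is the lowest of 4), for regions over 20 kb from a coding gene (dark) and within 20 kb (light); bars are exact 95% binomial intervals. In every panel the share falls with tags, and in the lowest class of young vehicle regions it is 80.7% for distant regions and 77.7% for regions near genes.

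Distant regions gathered in clusters. Joined across short gaps, by the distance customary for stitching enhancers, they formed 752 clusters, and 414 regions (27.6%) stood alone. The largest cluster had 17 regions over 46825 bp at chr2:30677238-30724062, with the lncRNA genes Gm14486 and Gm14488 and the hairpin of Mir3089. Its summed tags were 4564 in young TSA, 4451 in young vehicle, 6227 in old TSA and 4037 in old vehicle, and 13 of its regions were in all 4 lists. Of these 13, 11 were relatively higher in old TSA than in young TSA and 12 in old than in young vehicle, with medians of 0.42 and 0.46. Among all distant regions in all 4 lists, 65.8% and 59.6% were higher in these comparisons, with medians of 0.16 and 0.15. The 13 regions are neighbours, so they are not separate observations. The start of Gm14486, in chr2:30677238-30678221, had 89 tags in young TSA, 61 in young vehicle, 189 in old TSA and 110 in old vehicle.

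The genes with most distant regions as neighbours were Zeb2 with 27, Gm5148 with 24, Rnd3 with 22, and 1700001O22Rik, Cops8 and Fn1 with 19 each, followed by Lyplal1 with 17 and S1pr1 with 14. These counts also depend on how much distant space lies nearest to each gene. Zeb2 had 1836 kb of it and 14.7 regions per Mb, the lowest density of these 8 genes. The highest was that of 1700001O22Rik, with 73.3 kb and 259 regions per Mb. In all 421 genes were nearest to some distant region, and 28 of them to 10 or more. Zeb2 encodes a repressor that drives mesenchymal traits. Around it 12 regions had a peak in young TSA, 25 in young vehicle, 16 in old TSA and 8 in old vehicle. The 12 shared by the young libraries were all relatively lower in young TSA, and the 8 shared by the old libraries were all relatively lower in old TSA. Of its 7 regions in all 4 lists, 0 were relatively higher in TSA in either pair. Among all distant regions in all 4 lists, 34.6% were higher in TSA in the young pair and 40.4% in the old pair. Cops8 was the only one of these 8 genes with all its regions, 19, present in old TSA, against 10 in young TSA, 12 in young vehicle and 13 in old vehicle. S1pr1, the sphingosine-1-phosphate receptor gene of endothelium and lymphocytes, had summed tags of 1690 in young TSA, 2403 in young vehicle, 1389 in old TSA and 818 in old vehicle.

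Of 17 genes of matrix and fibrosis 12 were nearest to distant regions, 83 in all, with a peak at 33 in young TSA, 68 in young vehicle, 51 in old TSA and 38 in old vehicle. In the young pair, 1 region had a peak only in TSA and 36 only in vehicle, of 69 with a peak in either (1.45% and 52.2%, exact 95% intervals 0.0367 to 7.81 and 39.8 to 64.4), against 4.69% and 42.0% of all distant regions. In the old pair 18 were held only by TSA and 5 only by vehicle of 56 (32.1% and 8.93%), against 42.5% and 6.79% of all distant regions. By gene, 10 of the 12 had fewer peaks in young TSA than in young vehicle and 2 had as many. So had 8 of the 12 signalling genes and 12 of the 19 transcription factor genes described below. Counts by gene, here and below, were not made over all 421 genes nearest to distant regions. Young TSA had peaks at 717 distant regions in all, against 1178 in young vehicle.

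Fn1, the gene of fibronectin, had 19 regions between 26.9 and 242.6 kb away. Their summed tags were 345 in young TSA, 1371 in young vehicle, 759 in old TSA and 748 in old vehicle, with peaks at 5, 14, 10 and 10 regions. Within the young pair no Fn1 region was held only by TSA and 9 were held only by vehicle, some of them with peaks in the old lists. The 4 regions beyond 200 kb, between chr1:71865119-71866278 and chr1:71895894-71897015, had no young TSA peak, whereas the last had 184 tags in young vehicle, 175 in old TSA and 93 in old vehicle. Postn, the gene of periostin, a matrix protein of healing and fibrotic tissue, had 13 regions between 22.5 and 149.1 kb away. All 13 had a peak in young vehicle, against 5 in young TSA, 4 in old TSA and 2 in old vehicle, with summed tags of 527 in young TSA, 1509 in young vehicle, 414 in old TSA and 325 in old vehicle. Its strongest, chr3:54540189-54541771, had 234 tags in young TSA, 390 in young vehicle, 260 in old TSA and 270 in old vehicle. Young vehicle was thus the highest library at both genes.

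**Figure D5:**
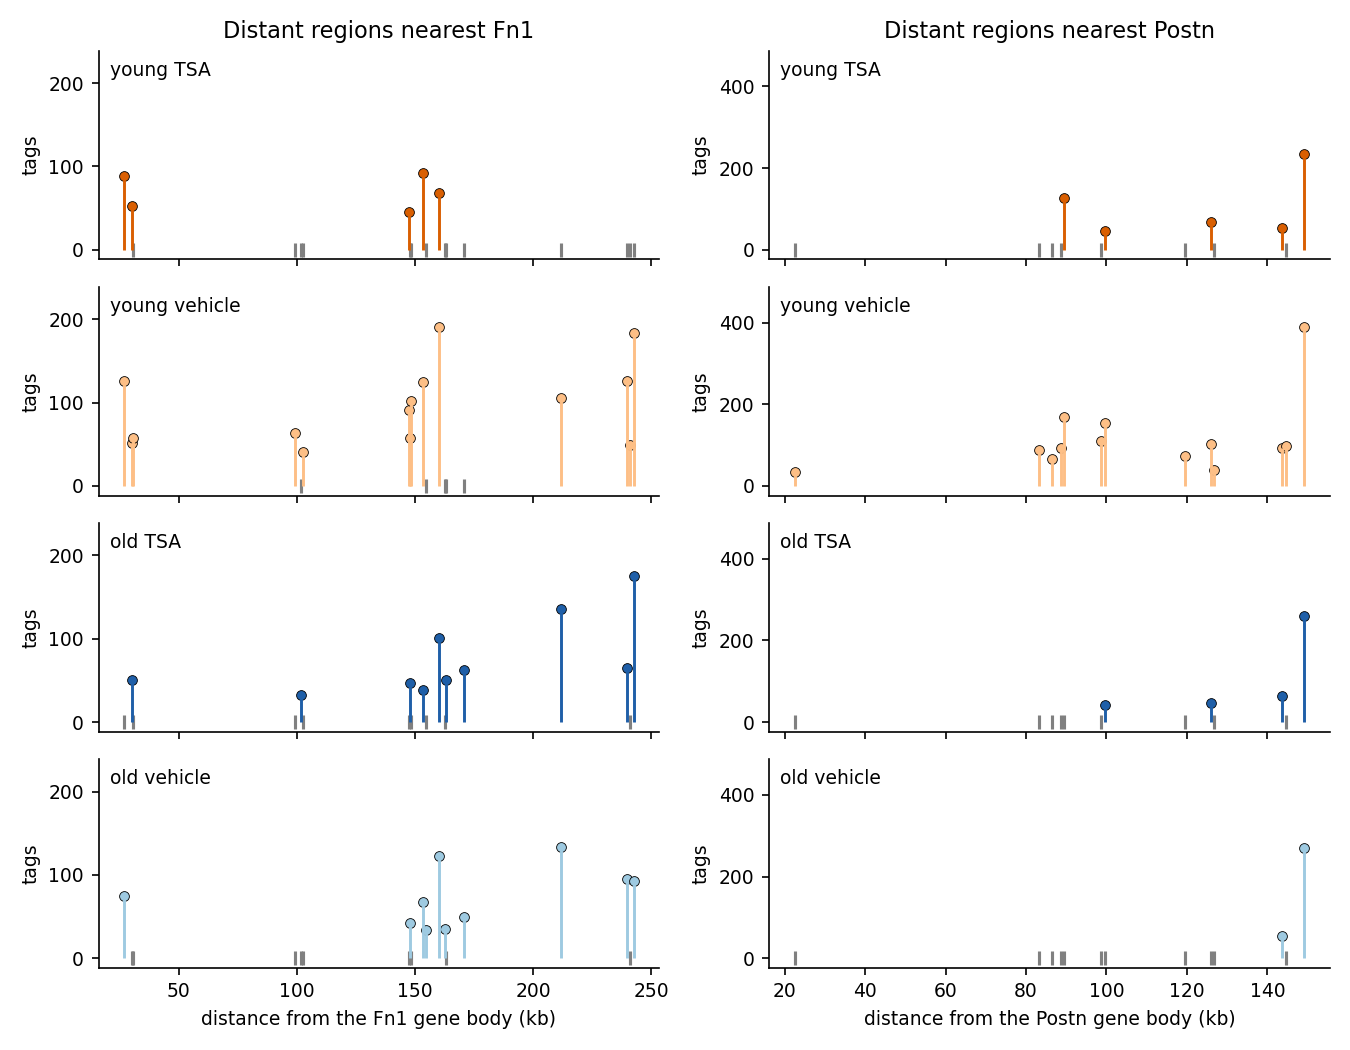
H3K27ac tags of the distant regions nearest Fn1 (19 regions) and Postn (13 regions) against distance from the gene body (kb), with 1 row per library; grey ticks are regions without a peak in that list. Young vehicle has peaks at 14 and 13 of them and young TSA at 5 and 5, and in old vehicle 2 Postn regions remain.

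Other collagen genes differed from one another. Col3a1, which encodes type III collagen, had 6 regions, all with a young vehicle peak, 2 with a young TSA, 2 with an old TSA and 1 with an old vehicle peak. Col6a3 had 12 regions, 6 with a peak in young TSA, 8 in young vehicle, 11 in old TSA and 7 in old vehicle. Col5a1 had 6 regions with summed tags of 982 in young TSA, 1081 in young vehicle, 1192 in old TSA and 677 in old vehicle. Fndc3b, Lamc1, Col5a2, Tns1, Prelp and Fbn1 also had fewer peaks in young TSA than in young vehicle. Col5a1 had 5 in each, and Tnfaip6 none in either.

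Signalling genes gave 60 distant regions around 12 of 27 genes. In the young pair none was held only by TSA and 24 only by vehicle, of 48 with a peak in either (50%, exact 95% interval 35.2 to 64.8, which holds the 42.0% of all distant regions). In the old pair 23 were held only by TSA and 3 only by vehicle, of 44 (52.3% and 6.82%), against 42.5% and 6.79% of all distant regions. Tgfb2, which encodes a driver of fibrosis of the TGF-beta family, had 9 regions, with a peak at 3 in young TSA, 8 in young vehicle, 6 in old TSA and 1 in old vehicle. Its summed tags were 339, 712, 614 and 200 in the same order. The region shared by all, chr1:186413080-186414871, had 253 tags in young TSA, 250 in young vehicle, 288 in old TSA and 200 in old vehicle, so the differences lay in the weaker regions. Jag1, the gene of a Notch ligand, had peaks at 4 regions in young TSA, 7 in young vehicle, 8 in old TSA and 4 in old vehicle, of 10. Acvr2a, the gene of an activin and myostatin receptor, had all 11 in young vehicle, against 6 in young TSA, 6 in old TSA and 5 in old vehicle. Thbs1, the thrombospondin 1 gene, had all 6 in young vehicle, against 3 in young TSA, 3 in old TSA and 2 in old vehicle.

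Transcription factor genes of mesenchyme and development gave 85 distant regions around 19 of 42 genes. In the young pair 4 were held only by TSA and 29 only by vehicle, of 73 (5.48% and 39.7%), close to the 4.69% and 42.0% of all distant regions. In the old pair 30 were held only by TSA and none only by vehicle, of 59 (50.8% and 0%, exact 95% interval of the second 0 to 6.06%), against 42.5% and 6.79%. In the young pair 12 of the 19 genes had fewer peaks in TSA, 5 had as many and 2, Cebpb and Foxo1, had more. Cebpb, the gene of an early factor of adipogenesis, had peaks at 6 regions in young TSA, 4 in young vehicle, 9 in old TSA and 4 in old vehicle, of 9. Snai1, the gene of a mesenchymal repressor, had 4 regions, and the strongest of them, chr2:167569529-167571840, had 341 tags in young TSA, 388 in young vehicle, 477 in old TSA and 405 in old vehicle. Prrx1, a limb mesenchyme and FAP factor gene, had 3 regions, none with an old vehicle peak. The FAP gene Cd34 had 4 regions with summed tags of 619 in young TSA, 1017 in young vehicle, 781 in old TSA and 422 in old vehicle. Genes of muscle fibres, Schwann cells and pericytes were nearest to no distant region. At most 0.119 Mb of distant space lay nearest to the genes of any of these lists, where such space held 6.54 regions per Mb on average. Muscle stem cell genes were nearest to 1 distant region. Of the genes listed for macrophages only Csf1 was nearest to any, with 6 regions, and that list had 0.0587 Mb of distant space. Endothelial and lymphocyte genes were nearest to 15 and 22 regions, led by S1pr1 and Cd28.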

How the data were processed

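Chromatin immunoprecipitation with sequencing (ChIP-seq, Illumina HiSeq2500, per the labels) of H3K27ac and H3K9/14ac was deposited as 8 peak lists, 1 library per group. The 4 input samples were not used here. Per the file headers, the lists come from HOMER's differential peak tool run with a library as its own background, so their fold and p columns carry no comparison. The tags are whole counts per peak, as deposited, with coordinates on GRCm38. The submitters' processing notes name Bowtie 0.12.7, HOMER and MACS2. What role each had in these lists, and how FAPs were gated, was not stated there.

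The H3K27ac lists were cut to the stretch that all 4 hold (17.9% to 18.3% of the peaks their headers state). Peaks touching or overlapping by 1 bp were merged, and a region's tags in a library are the summed tags of its peaks there. Distances were measured to protein-coding gene bodies of the RefSeq gene table (GRCm38.p6). Errors of log2 ratios are counting errors from the tag counts. Intervals of shares are exact (Clopper-Pearson) at 95%. Both cover counting error only, since reads are not known to be independent molecules. Python 3.11.15, numpy 2.4.6, pandas 2.3.3, scipy 1.17.1 and matplotlib 3.10.9 were used, and the procedure was tested on simulated data.

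The members and gene lists were chosen with earlier results of these data known. Regions named by rule were the 6 with most tags, the 3 highest and the 3 lowest of each comparison with at least 100 tags over both libraries, the strongest of each presence pattern with 20 or more regions, the 3 farthest, those next to the distance threshold, the 3 largest clusters, the 3 with most H3K9/14ac and the 8 genes nearest to most regions. The text gives some of these, and regions next to 1 gene are not reported here. The Bmncr, Gm4258 and microRNA 30a regions and the single regions given for genes of the lists were chosen after their values were seen. The alternatives tried were other distances, other gene sets, other merging, stricter or equal lists, broader coverage, other scalings and a longer stretch.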

Additional observations from a re-analysis of the deposited data

Results flagged for a closer look

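The number of distant regions with a peak differed between TSA and vehicle in opposite directions at the 2 ages. Young TSA had 461 fewer than young vehicle (a difference of -461), and old TSA had 400 more than old vehicle. The same directions were found over all 8704 regions. There a peak was present at 59.2% in young TSA and 83.2% in young vehicle, beside 47.8% and 78.5% of distant regions. In the old libraries it was 74.4% in old TSA and 51.4% in old vehicle, beside 69.6% and 42.9% of distant regions. With 1 library per group the difference between the ages was not tested. The longer list of each pair was the one with more distant regions. With lists of equal length, 11.6% of distant regions had a peak only in young TSA and 24.1% only in young vehicle, and 25.2% only in old TSA and 16.3% only in old vehicle. The opposite directions were thus kept in distant regions and the gaps were smaller. These shares were not computed for all regions, so they do not tell whether the directions are particular to distant regions.

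Among the 445 distant regions in all 4 lists, 2 were past -1 in relative tags in the young pair and past 1 in the old pair, and 0 were the other way round. Of all 3706 regions with a peak in every list, 2.81% were past -1 and 0.54% past 1 in the young pair. In the old pair 0.89% were past -1 and 3.62% past 1. The joint count was not made over all regions, so the 2 cannot be set against a background. One of these 2 distant regions is given here. Chr1:90668590-90670252, nearest Cops8, had 90 tags in young TSA and 229 in young vehicle, and 190 in old TSA and 51 in old vehicle, with relative tags of -1.23 and 1.39. The difference between the ages was not tested.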

How the results depend on the processing

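Of 109 alternative values, 59 stayed close to the reported one, 47 moved and 3 turned the direction; causes were not tested. Close means within the counting interval for a share and within 1.5 times for the number of distant regions. The alternatives were computed for distant regions only. That number was 1783 over 10000 bp, 1106 with gaps merged, 1084 with equal lists, 916 over 50000 bp, 514 away from any annotated gene and 561 in the upper 50% of each list. The share in all 4 lists was 23.3% away from any annotated gene, 35.5% with gaps of up to 1000 bp merged, 33.0% in the upper 50%, 37.1% with lists of equal length and 18.8% where peaks had to cover 50% of a region. The share with a peak in 1 library of a pair moved as follows. Away from any gene it was 46.6% for young vehicle only (young TSA against young vehicle), 11.1% for old vehicle only (old TSA against old vehicle), 53.3% for young vehicle only (old against young vehicle) and 13.0% for young TSA only (old TSA against young TSA). With gaps merged it was 35.8% for young vehicle only, 38.0% for old TSA only, 43.7% for young vehicle only and 32.8% for old TSA only, in the same order of comparisons. In the upper 50% it was 1.66% and 45.4% for young TSA only and young vehicle only, 37.5% and 3.46% for old TSA only and old vehicle only, and 6.90% for young TSA only against old TSA. With equal lists of 5727 peaks it was 11.6% and 24.1%, 25.2% and 16.3%, 14.8% and 30.8%, and 22.4% and 17.9% for the 4 comparisons, so the directions held and the gaps were smaller. With 50% coverage it was 51.0% for young vehicle only, 53.2% for old TSA only, 60.3% for young vehicle only, and 45.2% and 12.0% for old TSA only and young TSA only. On the longer stretch 41.8% were in old TSA only against young TSA. The share higher in relative tags was 34.7% for old TSA against old vehicle over 50000 bp; 27.5%, 33.3% and 53.3% away from any gene for the first 3 comparisons; 69.2% and 73.5% in the upper 50% and 72.0% and 70.9% with 50% coverage for old against young vehicle and old TSA against young TSA. Scaled by total tags it was 55.3% (turned), 28.1%, 69.9% and 56.6% for the 4 comparisons. With no scaling it was 20.2% for young TSA against young vehicle, 87.0% (turned) for old TSA against old vehicle and 10.3% (turned) for old against young vehicle.

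No paired analysis was possible because each group has 1 library, which also leaves no replicate to leave out. A region without a listed peak has an unknown level, so weak regions limit every count of presence. The planned search of sequence inside the regions was not run, since no genome of this build was used here.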
